A study of Mus musculus with 12 samples.

Results

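The genes described here are 5 matrix metalloproteinases (Mmp2, Mmp3, Mmp9, Mmp13 and Mmp14) and 3 tissue inhibitors of metalloproteinases (Timp1, Timp2 and Timp3). They were chosen by symbol, and they are 8 of the 15434 genes in the normalized table of murine hip cartilage arrays. Their RNA was read on Illumina mouse BeadChips, on which each probe is a short DNA strand fixed to many beads. The 12 arrays fell into 4 groups of 3, with control and injured hips of WT mice and control and injured hips of Mapk9 KO mice. All mice were C57BL6, aged 4 to 6 weeks per the labels and 5 to 6 weeks per the methods, and the knockout, labelled MAPK9 KO, concerns the gene of a c-Jun N-terminal kinase. Control cartilage of the femoral epiphysis was snap-frozen after avulsion, whereas injured cartilage was cultured in serum-free medium and taken 4 h post injury, so injury and culture cannot be told apart. The methods describe each replicate as a pool of 6 hips from 3 mice, without naming the knockout, and how the knockout was made is not given in the sources used here.

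Metalloproteinases are secreted or membrane-bound zinc enzymes that cut extracellular matrix, and most are made as inactive proenzymes. Tissue inhibitors of metalloproteinases bind the active site, so the transcript levels of both sides bear on how much protease activity a tissue could hold without measuring that activity. In cartilage the collagenase Mmp13 cleaves type II collagen, the stromelysin Mmp3 cuts proteoglycans and activates other proenzymes, and Timp3 is bound to the matrix and also inhibits aggrecanases.

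The 8 genes had 14 probes in the normalized table, 9 for proteases and 5 for inhibitors, and 12 of these were detected (detection p under 0.05) on all 12 arrays. Probes are named by their gene and the start base in their annotation. The start bases of a gene need not refer to the same transcript. The non-normalized file held 2 more probes under these names. A second Mmp14 probe, detected on 0 of 12 arrays, was not in the normalized table. A probe named Timp3 in the non-normalized file was named Syn3 in the normalized table and was therefore left out by the rule. It was detected on 12 arrays with signals of 175 to 315.

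The sequences just before the start sites are shown for Mmp3, Mmp13 and Timp3 because their probes gave the largest injury changes in WT among the proteases and inhibitors. They are RefSeq windows of build GRCm38.p6 and cover the 130 bases before the annotated start, chr9:7445692-7445821 (plus strand) for Mmp3, chr9:7272384-7272513 (plus strand) for Mmp13 and chr10:86300282-86300411 (plus strand) for Timp3. Capitals mark the letters TGANTCA, the binding motif of AP-1 (dimers of Fos and Jun proteins), and TATAAA, the TATA box.
Mmp3: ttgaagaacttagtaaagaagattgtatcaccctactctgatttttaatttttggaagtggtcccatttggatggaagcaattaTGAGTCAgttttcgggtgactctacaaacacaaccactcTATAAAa
Mmp13: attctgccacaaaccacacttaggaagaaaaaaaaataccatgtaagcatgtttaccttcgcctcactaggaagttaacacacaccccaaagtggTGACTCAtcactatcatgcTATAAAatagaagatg
Timp3: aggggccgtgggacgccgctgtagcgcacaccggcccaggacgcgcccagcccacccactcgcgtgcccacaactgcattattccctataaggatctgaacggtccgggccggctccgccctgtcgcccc
Of the 8 genes, 6 were matched to a RefSeq window (Mmp3, Mmp13, Mmp14, Timp1, Timp2 and Timp3), and the 250 bases before each start were searched on both strands. The AP-1 letters were found in Mmp3, beginning 46 bases before the start, and in Mmp13, beginning 35 bases before it, and in 0 of the other 4 windows. TATAAA was likewise found in the windows of Mmp3 and Mmp13 alone among the 6. Over all 32851 promoter windows of that length, 6.75% held the AP-1 letters and 12.4% held TATAAA. The letters AGGAAG, a core motif of ETS factors that overlaps neither of the other motifs, were found in 29.5% of all windows and in those of Mmp3, Mmp13, Mmp14, Timp1 and Timp3. A match of letters is a description of the window and no record of binding.

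Between 16930 and 18969 probes were detected per array, and array medians lay between 7.55 and 7.70 on the log2 scale of the table. The label check held in that the brighter Mapk9 probe read 8.69 to 9.28 on the 6 Mapk9 KO arrays and 10.05 to 10.90 on the 6 WT arrays. All 11 measured chondrocyte marker genes of 14 listed were detected on every array, as were all 9 neutrophil markers, and 8 of 10 skeletal muscle markers and 4 erythroid genes, so the tissue labelled hip cartilage also carried RNA of marrow and muscle. In such bulk samples fewer cells of a type and less RNA per cell cannot be told apart.

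Post injury, Timp3 was upregulated in both genotypes, whereas Mmp3 was upregulated past the threshold in Mapk9 KO and Mmp2 and Mmp14 were downregulated there. The threshold was a fold change above 2 with an adjusted p under 0.05 in limma, adjusted by the Benjamini-Hochberg method over all 21004 probes. In WT, 2 of the 8 genes passed, Timp3 higher and Mmp13 lower at a single one of its probes, beside 8.35% of all genes called higher and 8.24% called lower. In Mapk9 KO, 4 of the 8 passed, Mmp3 and Timp3 higher and Mmp2 and Mmp14 lower, beside 10.6% of all genes higher and 10.4% lower. The median log2 change over the 14 probes was 0.65 in WT and 0.29 in Mapk9 KO, and over all probes it was -0.02 in both. This median counts probes, so genes with several probes weigh more in it. Mmp2, Mmp9, Mmp14 and Timp2, with negative changes in both genotypes, have 1 probe each, so it does not describe a shift of the 8 genes. The genotypes did not differ past the threshold in the size of the injury change at any of the 14 probes.

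**Figure D1:**
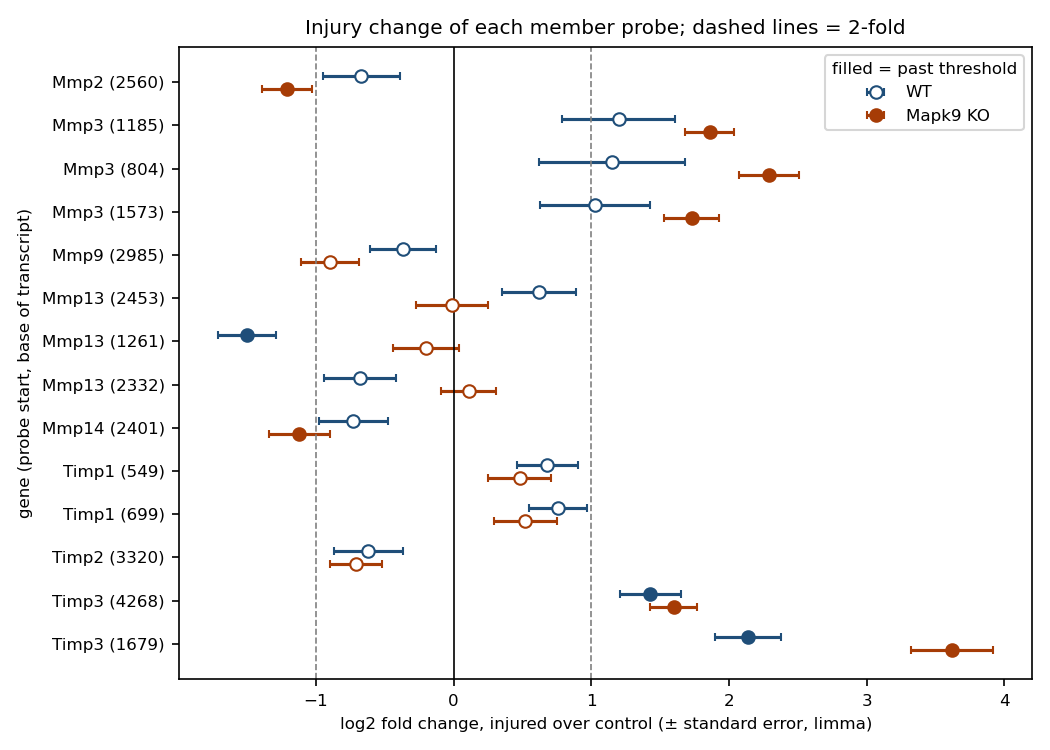
Fitted log2 fold change with its standard error for each of the 14 probes, injured over control, in WT (blue) and Mapk9 KO (orange), with 3 arrays in each group. Filled points passed the threshold, and the filled points are Timp3 in both genotypes, Mmp13 (1261) in WT, and Mmp3, Mmp2 and Mmp14 in Mapk9 KO.

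Mmp3 encodes stromelysin-1. On its brightest probe, which starts at base 1185, the normalized log2 signal was 11.04, 9.18 and 9.99 in WT control replicates 1 to 3 and 11.21, 11.72 and 10.90 in WT injured replicates 1 to 3. In Mapk9 KO it was 10.25, 10.17 and 9.85 in control and 11.86, 11.96 and 12.03 in injured hips. WT control replicate 1 lay above the lowest WT injured array, so the WT groups overlapped, while the Mapk9 KO groups were apart. The log2 change was 1.86 (SE 0.18, limma adjusted p = 1.79e-05) in Mapk9 KO, a 3.63-fold rise seen in all 3 replicate pairs. In WT the log2 change was 1.20 (SE 0.41, adjusted p = 0.0558), which missed the threshold.

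The group means of the other Mmp3 probes were also higher in injured than in control hips, although the WT groups overlapped at both. The probe at base 804 read 10.15, 7.49 and 9.21 in WT control, 10.32, 10.26 and 9.72 in WT injured, 9.31, 8.85 and 8.74 in Mapk9 KO control and 11.39, 10.93 and 11.46 in Mapk9 KO injured hips. Its change was 2.29 (SE 0.22, adjusted p = 1.71e-05) in Mapk9 KO and 1.15 (SE 0.53, adjusted p = 0.146) in WT. The probe at base 1573 changed by 1.73 (SE 0.20, adjusted p = 7.96e-05) and by 1.03 (SE 0.40, adjusted p = 0.086) in turn, and was higher in 2 of 3 WT pairs. WT control replicate 1 was the highest and replicate 2 the lowest of the 3 WT control arrays at all 3 probes. Without WT control replicate 1 the WT change at base 1185 was 1.69 (adjusted p = 0.0105) and at base 804 it was 1.75 (adjusted p = 0.0314), so both then passed. Without WT control replicate 2, in contrast, the WT change was 0.76 (adjusted p = 0.119) at base 1185, 0.42 at base 804 and 0.64 at base 1573. With all arrays kept, the WT change at base 1185 passed when array medians were subtracted (1.26, adjusted p = 0.0404), when only probes detected on at least 3 arrays (adjusted p = 0.0493) or 1 probe a gene (adjusted p = 0.0462) were tested, and when all 12 arrays entered the fit (adjusted p = 0.0182).

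**Figure D2:**
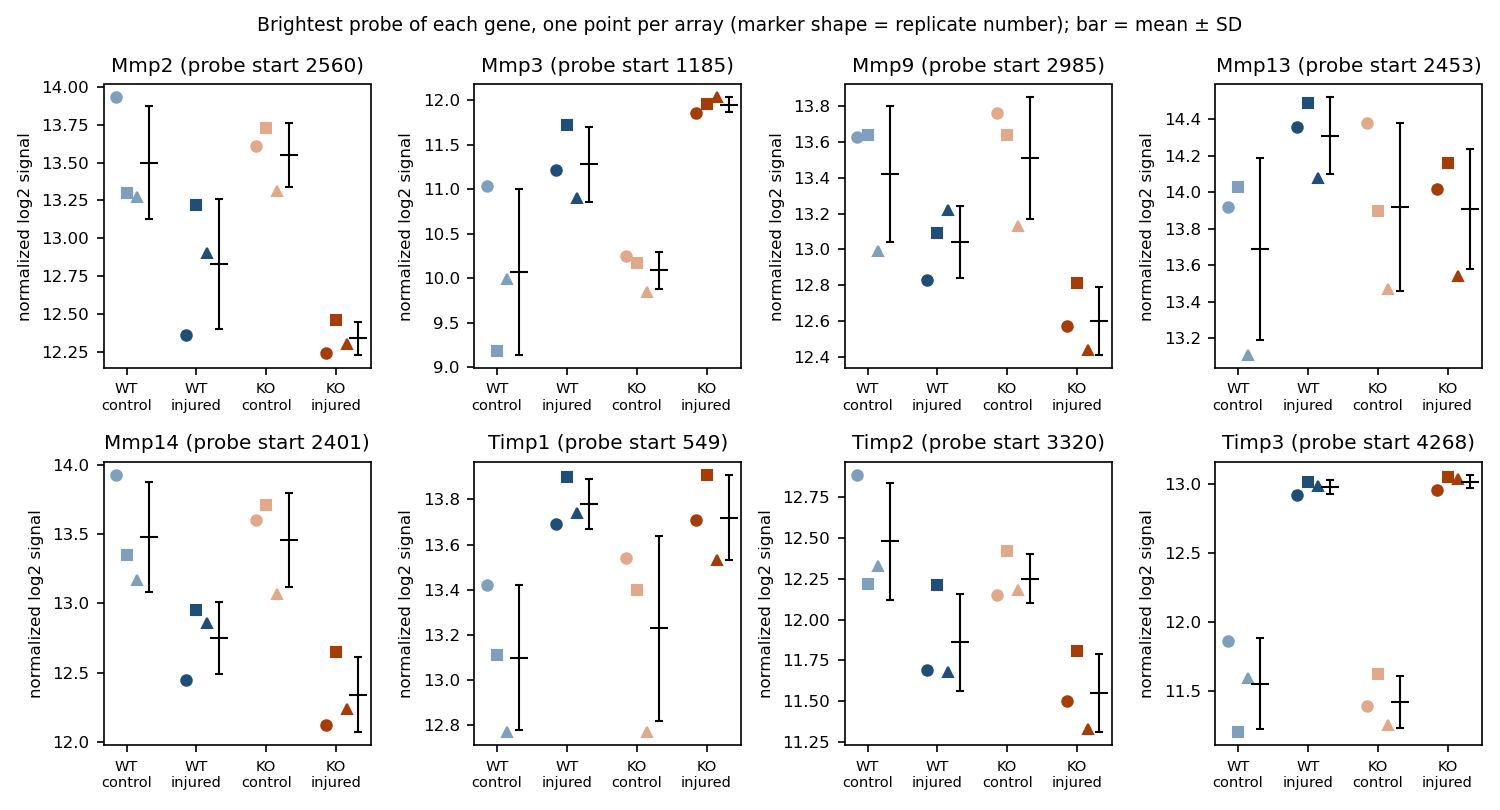
Normalized log2 signal of the brightest probe of each gene on every array, with marker shapes for replicates 1 to 3 and the group mean ± SD (n = 3) beside them, on an axis of its own for each gene. The injured arrays of Timp3 all lie at 12.92 or above and its control arrays at 11.86 or below, while the WT control arrays of Mmp3 run from 9.18 to 11.04.

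Mmp13 encodes collagenase-3, the main collagenase of mouse cartilage, and its 3 probes moved apart post injury. The brightest, at base 2453, read 13.92, 14.03 and 13.11 in WT control and 14.36, 14.49 and 14.08 in WT injured hips, with every injured array above every control array. Its WT change of 0.62 (SE 0.27, adjusted p = 0.119) did not pass, and it was 0.33 without WT control replicate 3, 0.31 with neqc, a background correction with quantile normalization, and 0.30 with quantile normalization alone. With the replicate number as a block it passed the adjusted p (0.0461) but not the fold limit. The brightest of all probes read 13.65 to 14.46 on the WT control and 14.34 to 14.63 on the WT injured arrays, and this Mmp13 probe lay 0.42 to 0.54 and 0.13 to 0.26 below it. Whether the top of the scale limited its change was not tested. The probe at base 1261 read 10.45, 10.02 and 10.08 in WT control and 8.57, 8.53 and 8.93 in WT injured hips, also without overlap but in the other direction. It was downregulated 2.84-fold, a log2 change of -1.5 (SE 0.21, limma adjusted p = 0.000827). With the highest-mean probe standing for each gene this call ended, since that probe is the one at base 2453. The sequence of this probe as deposited is shown because it carries the only protease call in WT.
Mmp13 probe at base 1261: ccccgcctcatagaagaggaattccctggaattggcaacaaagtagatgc
The dimmest probe, at base 2332, changed by -0.68 (SE 0.26, adjusted p = 0.0774) in WT and was detected on 11 of 12 arrays. That change was -0.25 with quantile normalization alone, and with the replicate number as a block it too passed the adjusted p (0.0373) but not the fold limit. A single statement on Mmp13 in WT is therefore not given by these arrays.

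In Mapk9 KO none of the 3 Mmp13 probes separated the groups. The probe at base 2453 read 14.38, 13.90 and 13.47 in control and 14.02, 14.16 and 13.54 in injured hips, a change of -0.01 (SE 0.26, adjusted p = 0.981). The probe at base 1261 read 9.34, 9.59 and 9.36 in control and 9.16, 8.80 and 9.74 in injured hips, a change of -0.20 (SE 0.24, adjusted p = 0.553). The probe at base 2332 changed by 0.11 (SE 0.20, adjusted p = 0.707). At base 1261 the Mapk9 KO control arrays were all below the WT control arrays, a log2 difference of -0.75 (SE 0.21) with an unadjusted p of 0.00505 and a limma adjusted p of 0.536.

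**Figure D3:**
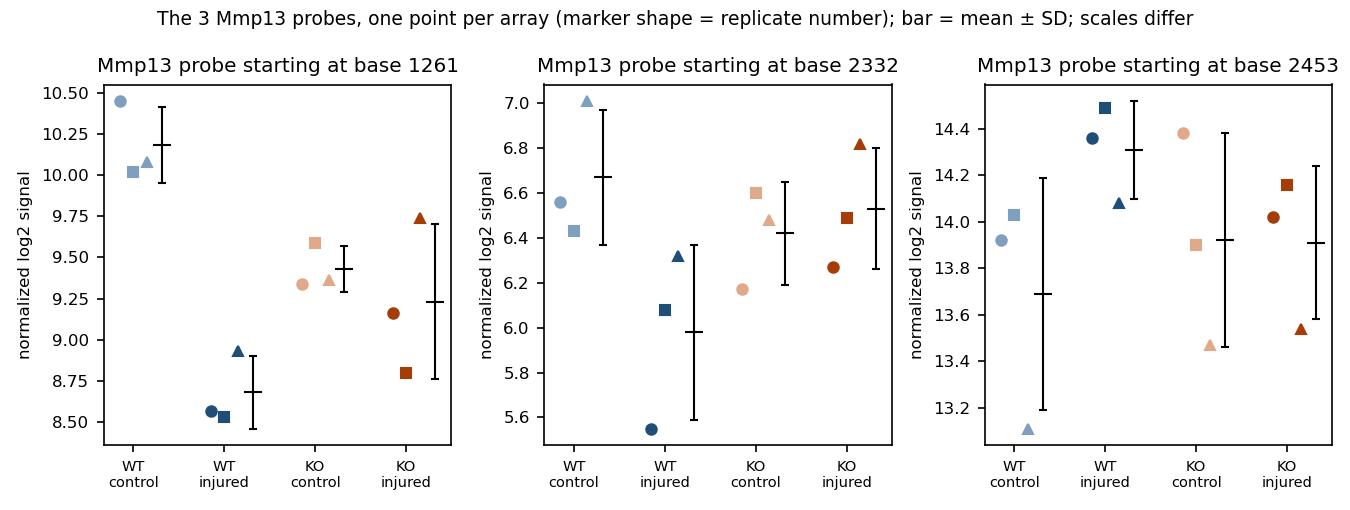
Normalized log2 signal of the 3 Mmp13 probes on every array, with marker shapes for replicates 1 to 3 and the mean ± SD (n = 3) of each group. In WT the probe at base 1261 falls from 10.02 or above to 8.93 or below, the probe at base 2453 lies higher in injured than in control hips, and the Mapk9 KO groups overlap at all 3 probes.

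The gelatinases Mmp2 and Mmp9 cut denatured collagen. Mmp2 read 13.93, 13.30 and 13.27 in WT control, 12.36, 13.22 and 12.90 in WT injured, 13.61, 13.73 and 13.31 in Mapk9 KO control and 12.24, 12.46 and 12.30 in Mapk9 KO injured hips. No injured array reached the control arrays of its genotype. In Mapk9 KO Mmp2 was downregulated 2.32-fold (log2 change -1.21, SE 0.18, limma adjusted p = 0.000385), and in WT its change of -0.67 (SE 0.28, adjusted p = 0.104) did not pass. With neqc the changes were -0.98 (adjusted p = 0.0213) in WT and -1.18 (adjusted p = 0.000147) in Mapk9 KO, and without WT injured replicate 1 the WT change was -0.44.

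Mmp9, which is made by osteoclasts and neutrophils, read 13.63, 13.64 and 12.99 in WT control, 12.83, 13.09 and 13.22 in WT injured, 13.76, 13.64 and 13.13 in Mapk9 KO control and 12.57, 12.81 and 12.44 in Mapk9 KO injured hips. The WT groups overlapped and the Mapk9 KO groups did not. Its change in Mapk9 KO was -0.90 (SE 0.21, limma adjusted p = 0.00596), which passed the adjusted p but not the fold limit, and in WT it was -0.37 (SE 0.24, adjusted p = 0.287). The WT change was -0.63 with neqc (adjusted p = 0.0283) and with quantile normalization alone (adjusted p = 0.00935), and -0.59 without WT control replicate 3. Without Mapk9 KO control replicate 3 the change was -1.10 (adjusted p = 0.00198) and without Mapk9 KO injured replicate 2 it was -1.0 (adjusted p = 0.0086), and either then passed both limits.

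Mmp14 encodes a membrane-type metalloproteinase that activates pro-Mmp2 with the help of Timp2. It read 13.93, 13.35 and 13.17 in WT control, 12.45, 12.95 and 12.86 in WT injured, 13.60, 13.71 and 13.07 in Mapk9 KO control and 12.12, 12.65 and 12.24 in Mapk9 KO injured hips. Injured and control arrays did not overlap in either genotype. Mmp14 was downregulated 2.18-fold in Mapk9 KO (log2 change -1.12, SE 0.22, limma adjusted p = 0.00243), and the fold fell just short without Mapk9 KO control replicate 2 (log2 change -1.0, adjusted p = 0.0143). In WT the change was -0.73 (SE 0.25, adjusted p = 0.0565). With neqc it was -1.0 (adjusted p = 0.00766) in WT, just under the fold limit, and -1.07 (adjusted p = 0.000466) in Mapk9 KO.

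Markers of other cell types moved in the same comparisons, and 4 of 4 measured osteoclast markers fell in Mapk9 KO and 3 of 4 in WT. The summed level of these 4 genes (log2 of their added signals) ranged from 13.36 to 14.07 in WT control, 12.59 to 13.23 in WT injured, 13.68 to 14.22 in Mapk9 KO control and 12.05 to 12.50 in Mapk9 KO injured hips. Of them Acp5, Ctsk and Oscar were detected on all 12 arrays. Ctsk was by far the brightest, with a WT control mean of 13.64 against 9.91 for Oscar, so the summed level mostly follows Ctsk. Its WT change of -0.75 (SE 0.26, limma adjusted p = 0.0636) did not pass. Among 9 macrophage markers 6 fell and 2 rose in WT, and 7 fell and 2 rose in Mapk9 KO (1 rose in each at the brightest probe), while their summed level was higher in injured hips (14.28 to 14.52 against 13.27 to 13.79 in WT, and 14.34 to 14.77 against 13.61 to 13.87 in Mapk9 KO). Of 7 fibroblast and synovium markers 3 fell in WT, and in Mapk9 KO 4 fell and 1 rose (0 rose at the brightest probe), with summed levels of 14.81 to 15.23 in WT control, 14.78 to 15 in WT injured, 14.89 to 15.38 in Mapk9 KO control and 14.51 to 14.92 in Mapk9 KO injured hips. Of 9 neutrophil markers 6 rose in WT and 5 in Mapk9 KO at any probe, and 4 and 3 at the brightest probe, with summed levels of 15.73 to 16.47 against 16.86 to 17.11 and of 16.10 to 16.60 against 16.60 to 17.08. All 10 skeletal muscle markers fell in Mapk9 KO and 9 in WT, with summed levels of 15.76 to 16.25 in WT control, 12.87 to 14.69 in WT injured, 16.47 to 17.11 in Mapk9 KO control and 13.24 to 14.47 in Mapk9 KO injured hips. Of 6 measured osteoblast markers 3 fell in WT and 4 in Mapk9 KO at any probe, and 2 and 3 at the brightest probe, among them Sp7 (-1.14 and -1.19) and Phex (-1.10 and -1.38), with summed levels of 15.16 to 15.73 against 15.37 to 15.45 and of 15.28 to 15.92 against 14.99 to 15.41. The part of these cell types in the changes of Mmp2, Mmp9 and Mmp14 was not tested.

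Timp1 is a secreted inhibitor with broad activity. Its pair of probes shares 42 of 50 bases, shown in capitals, so the readings are not independent. By sequence the probe at base 699 begins before that at base 549, so their start bases do not refer to the same transcript.
Timp1 probe at base 549: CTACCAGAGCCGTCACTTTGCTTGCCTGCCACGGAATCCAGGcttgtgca
Timp1 probe at base 699: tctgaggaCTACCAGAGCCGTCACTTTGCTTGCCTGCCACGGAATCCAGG
The probe at base 549 read 13.42, 13.11 and 12.77 in WT control, 13.69, 13.90 and 13.74 in WT injured, 13.54, 13.40 and 12.77 in Mapk9 KO control and 13.71, 13.91 and 13.53 in Mapk9 KO injured hips. Every WT injured array was above the WT control arrays, whereas in Mapk9 KO a control array of 13.54 stood 0.01 above an injured array of 13.53. At base 699 the Mapk9 KO groups did not overlap, with 13.46 as the highest control and 13.52 as the lowest injured array. The WT change of 0.68 (SE 0.22, limma adjusted p = 0.0456) passed the adjusted p without reaching the fold limit, as did 0.76 (SE 0.21, adjusted p = 0.0243) at base 699. With each array left out in turn the WT adjusted p ran from 0.0362 to 0.152 at base 549, and it stayed under 0.05 only without WT control replicate 1. In Mapk9 KO the changes were 0.48 (SE 0.23, adjusted p = 0.119) and 0.52 (SE 0.23, adjusted p = 0.0985), higher in all 3 replicate pairs, and with the replicate number as a block both passed the adjusted p (0.0493 and 0.0376). Without Mapk9 KO control replicate 3 they were 0.25 and 0.28. The order of the genotypes turned with the normalization, since neqc gave 0.36 (adjusted p = 0.144) at base 549 and 0.44 (adjusted p = 0.0807) at base 699 in WT, and 0.54 (adjusted p = 0.0207) and 0.56 (adjusted p = 0.0203) in Mapk9 KO. Quantile normalization without background correction gave 0.36 (adjusted p = 0.061) and 0.43 (adjusted p = 0.0266) in WT, and 0.53 (adjusted p = 0.00398) and 0.56 (adjusted p = 0.00428) in Mapk9 KO.

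Timp2, which serves both as an inhibitor and in the activation of pro-Mmp2, read 12.89, 12.22 and 12.33 in WT control, 11.69, 12.21 and 11.68 in WT injured, 12.15, 12.42 and 12.18 in Mapk9 KO control and 11.50, 11.81 and 11.33 in Mapk9 KO injured hips. It was the only inhibitor whose values were lower post injury, in all 3 replicate pairs of each genotype. The change was -0.71 (SE 0.19, limma adjusted p = 0.0126) in Mapk9 KO, a 1.63-fold difference under the fold limit, and -0.62 (SE 0.25, adjusted p = 0.0977) in WT.

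Timp3 separated control and injured hips at both of its probes in each genotype, and it alone among the 8 genes passed the threshold in both. Its brightest probe, at base 4268, read 11.86, 11.20 and 11.59 in WT control, 12.92, 13.02 and 12.99 in WT injured, 11.39, 11.62 and 11.25 in Mapk9 KO control and 12.96, 13.05 and 13.04 in Mapk9 KO injured hips. The 6 injured arrays lay within 12.92 to 13.05, and the SD of each injured group was 0.05. Timp3 was upregulated 2.69-fold in WT (log2 change 1.43, SE 0.22, limma adjusted p = 0.00123) and 3.03-fold in Mapk9 KO (1.60, SE 0.17, adjusted p = 4.3e-05).

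The second Timp3 probe, at base 1679, was dim. It read 6.34, 5.66 and 5.91 in WT control, 7.94, 8.0 and 8.40 in WT injured, 5.19, 4.34 and 5.48 in Mapk9 KO control and 8.55, 8.30 and 9.03 in Mapk9 KO injured hips. It was detected on 1 of 3 WT control arrays, on 0 of 3 Mapk9 KO control arrays and on all 6 injured arrays. The WT change was 2.14 (SE 0.24, adjusted p = 0.000192). In Mapk9 KO it rose at least 6.45-fold, the injured mean set against the lowest signal of a detected probe on each control array. The limma adjusted p of 5.7e-06 belongs to the fitted log2 change of 3.62 and does not test this bound. With quantile normalization and no background correction the fitted changes at base 1679 were 1.17 in WT and 1.86 in Mapk9 KO. The direction was shared by both probes, while the size at this one depended on the processing, in which normalization and correction both differed.

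The protease to inhibitor balance was described as the mean log2 signal of the 5 proteases minus that of the 3 inhibitors on the same array, with the brightest probe of each gene. Probes differ in brightness for the same amount of transcript, so the balance has no absolute meaning and is used here for its change with injury alone. It was 0.57, 0.53 and 0.27 in WT control and -0.12, 0.05 and -0.01 in WT injured hips. In Mapk9 KO it was 0.76, 0.55 and 0.50 in control and -0.16, -0.12 and -0.12 in injured hips. All injured arrays lay below all control arrays, and the mean changed by -0.49 in WT (from 0.46 ± 0.16 to -0.03 ± 0.09, SD, n = 3) and by -0.74 in Mapk9 KO (from 0.60 ± 0.14 to -0.13 ± 0.02). With the dim Timp3 probe in place of the bright one these changes were -0.72 and -1.41. Neither gives a firm size, since that probe was detected on 1 of 3 WT control and 0 of 3 Mapk9 KO control arrays. With the Mmp13 probe at base 1261 the changes were -0.91 in WT and -0.77 in Mapk9 KO, so the order of the genotypes turned. It also turned with the Mmp13 probe at base 2332 (-0.75 and -0.71). In WT control hips the Mmp2 and Mmp14 probes lay 0.38 to 1.16 and 0.43 to 1.10 below the brightest probe of their array. Mmp9 lay 0.66 to 0.82 below it there. The Timp1 probe at base 549 lay 0.59 to 0.93 below it in WT injured and 0.62 to 0.71 in Mapk9 KO injured hips. Like Mmp13 these probes reach near the top of the scale, and no test was made of the score.

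**Figure D4:**
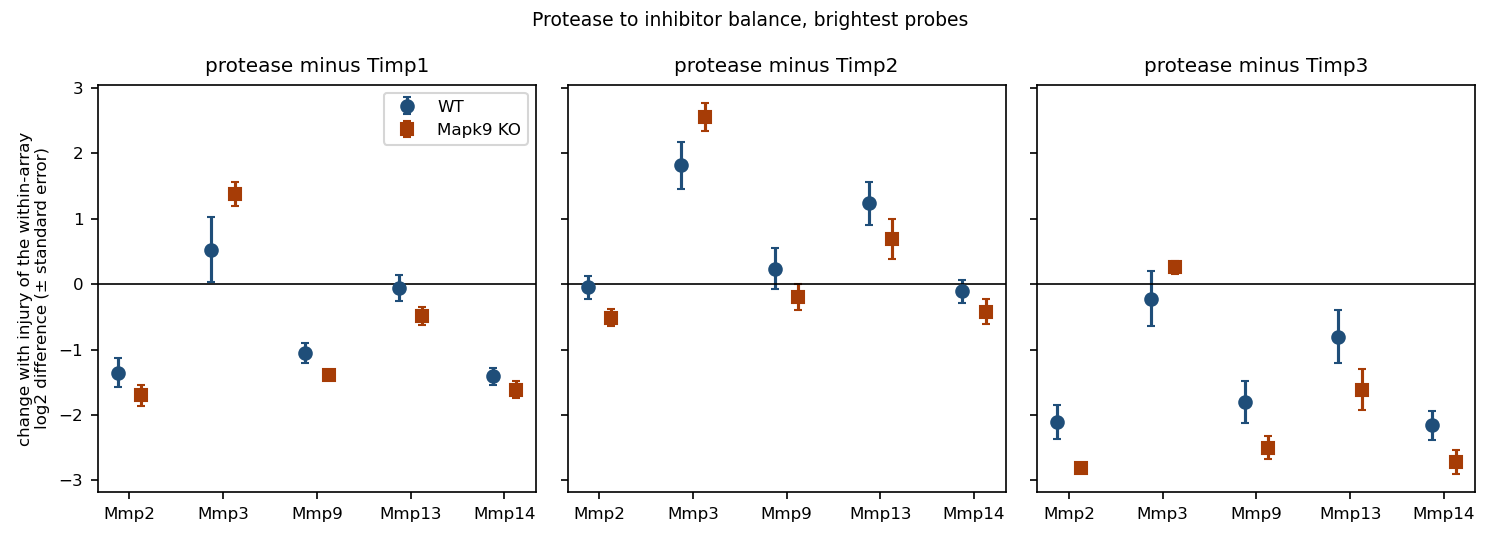
Change with injury of the difference in log2 signal between each protease and each inhibitor on the same array, with its standard error (n = 3 a group), for WT (circles) and Mapk9 KO (squares). Against Timp3 all values but that of Mmp3 in Mapk9 KO (0.26) lie below 0, whereas against Timp2 Mmp3 and, at the probe plotted (base 2453), Mmp13 lie above 0 in both genotypes and Mmp9 does in WT (0.24).

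The balance differed by pair. Of the 15 protease and inhibitor pairs 11 were lower post injury in WT, 7 of them without overlap of the arrays, and 11 in Mapk9 KO, 9 of them without overlap. Without overlap, 2 pairs were higher in WT and 3 in Mapk9 KO. With Mmp13 at base 1261 in place of base 2453 the WT counts were 12 lower, 9 of them without overlap, and 1 higher without overlap, and in Mapk9 KO they were 11, 8 and 3. Over all pairs of genes in the table, with the highest-mean probe of each, 46.8% did not overlap in WT and 55.7% in Mapk9 KO in either direction, so a lack of overlap was common to pairs on these arrays. Relative to Timp3, with the brightest probes, the change ran from -2.16 (Mmp14) to -0.22 (Mmp3) in WT and from -2.81 (Mmp2) to 0.26 (Mmp3) in Mapk9 KO. Mmp13 relative to Timp3 was lower at all 3 of its probes, with changes of -0.80 (base 2453), -2.93 (base 1261) and -2.11 (base 2332) in WT and of -1.61, -1.80 and -1.48 in Mapk9 KO. Mmp2 relative to Timp1 went from 0.40 ± 0.18 to -0.95 ± 0.34 in WT and from 0.32 ± 0.24 to -1.38 ± 0.14 in Mapk9 KO. Relative to Timp2, in contrast, Mmp3 went up by 1.82 in WT and 2.56 in Mapk9 KO. Mmp13 went up by 1.24 in WT and 0.69 in Mapk9 KO at base 2453, but at base 1261 it changed by -0.89 in WT and 0.51 in Mapk9 KO, and at base 2332 by -0.07 and 0.82, so its direction relative to Timp2 in WT turned with the probe. By its single probe, Mmp9 changed by 0.24 and -0.20. The difference of Mmp3 from Timp1 changed by 0.53 (SE 0.50) in WT, where the groups overlapped, and by 1.38 (SE 0.18) in Mapk9 KO. Mmp2 and Mmp14, whose signals were lower post injury like that of Timp2, changed relative to it by no more than -0.11 in WT (Mmp14) and -0.51 in Mapk9 KO (Mmp2). The pairs share probes and arrays and are not independent of each other.

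The genotypes were compared in 3 ways, in control hips, in injured hips and in the size of the injury change (interaction). In limma 0 of the 14 probes passed in each, beside 0.149% of all genes called in control hips, 0.201% in injured hips and 0.0% for the interaction, and the smallest adjusted p-values among the 14 were 0.536, 0.133 and 0.312. At an unadjusted p under 0.05 there were 2, 6 and 3 of the 14 probes, beside 6.46%, 12.6% and 9.94% of all probes, and the methods' t-test with adjustment also called 0 of them. The smallest value in injured hips belonged to the Mmp3 probe at base 804, which was 1.16 higher in Mapk9 KO (SE 0.22, unadjusted p = 0.000353), with no overlap of the arrays. At base 1185 that difference was 0.67 (SE 0.21, adjusted p = 0.268), and at base 1573 it was 0.47 (SE 0.31, adjusted p = 0.566) with overlapping groups. For the interaction the 3 probes were Mmp13 at base 1261 (1.31, SE 0.33), Timp3 at base 1679 (1.48, SE 0.41) and Mmp13 at base 2332 (0.80, SE 0.33), of which the Timp3 probe was below detection in Mapk9 KO control hips. Replicate numbers paired the samples, and with the replicate number as a block the interaction called 105 genes instead of 0 and the genotype comparison in injured hips 173 instead of 31. Over all genes the interaction also called 209 without WT control replicate 3, the comparison in control hips 341 in place of 23 without that array, and the comparison in injured hips 145 without WT injured replicate 1 and 57 without Mapk9 KO injured replicate 2. The 14 probes passed in none of these fits, and their smallest interaction value with the block was that of Timp3 at base 1679 (adjusted p = 0.0569). A missed threshold does not show that the genotypes respond alike.

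Other members of the metalloproteinase family moved in both directions. Of 18 listed genes 11 were measured, and 2 rose and 4 fell in WT and 2 rose and 5 fell in Mapk9 KO, with a median log2 change of -0.57 in WT and -0.60 in Mapk9 KO. Mmp10, a second stromelysin, was not detected in control hips and rose at least 1.79-fold in WT and at least 2.24-fold in Mapk9 KO. Mmp25, a membrane-anchored enzyme of leukocytes, was likewise not detected in control hips and rose at least 3.05-fold and at least 3.15-fold. The membrane-type Mmp16 fell by 2.66 (SE 0.24, limma adjusted p = 6.3e-05) in WT and fell by 3.03 in Mapk9 KO on the log2 scale. Mmp23 fell by 1.42 in WT and fell by 2.17 in Mapk9 KO. Mmp11 fell by 1.03 in WT and at least 2.34-fold in Mapk9 KO, and Mmp15 fell at least 1.96-fold and at least 1.99-fold. Of 5 other inhibitors 2 were measured, Timp4 and Reck, and 0 passed. The Reck changes were 0.10 (SE 0.26) in WT and 0.65 (SE 0.19) in Mapk9 KO.

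**Figure D5:**
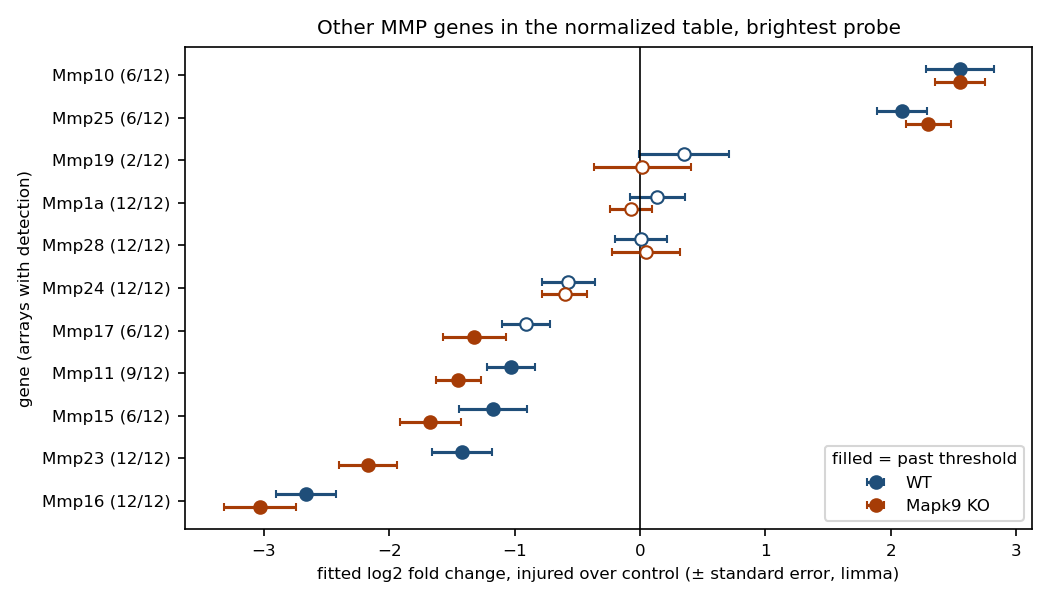
Fitted log2 fold change with its standard error, injured over control, for the 11 other metalloproteinase genes in the normalized table, in WT (blue) and Mapk9 KO (orange), with the number of the 12 arrays on which the probe was detected. Mmp10 and Mmp25 rise and Mmp16 and Mmp23 fall. Genes detected on 9 or fewer arrays have at least 1 group below detection, and a fitted value that uses such a group is not a size of change. For Mmp11 this concerns the Mapk9 KO value alone, since it was detected on all WT arrays.

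Genes that act on these proteases were described by lists. Of 10 measured genes for activation and clearance 3 rose and 0 fell in each genotype, with a median log2 change of 0.57 in WT and 0.58 in Mapk9 KO. Plaur, the urokinase receptor that focuses plasmin formation, rose by 2.82 on the log2 scale in WT and 3.16 in Mapk9 KO, Pcsk6, a proprotein convertase, by 1.01 and 1.02, and Bsg, known as an inducer of metalloproteinases, at least 2.62-fold and at least 5.0-fold. All 4 cytokines of a list of inducers of metalloproteinases passed higher in Mapk9 KO and 3 in WT, with a median of 2.88 in both. That median uses the fitted value of Tnf, which was not detected in control hips, so it gives no exact size. Il1b rose by 3.45 in WT and 3.26 in Mapk9 KO and Osm by 3.92 and 3.78, while Tnf, below detection in control hips, rose at least 1.96-fold and at least 1.78-fold, and Il1a, also below detection in control hips, rose at least 1.10-fold in Mapk9 KO. Of 7 AP-1 subunits 6 rose in both genotypes, with a median of 2.31 in WT and 2.81 in Mapk9 KO. Fosl1, below detection in control hips, rose at least 8.94-fold and at least 8.48-fold. Jun rose by 2.04 and 2.15, Junb by 2.64 and 2.81, Fos by 2.32 and 3.41 and Fosb by 2.31 and 3.49. Fosl2 passed at a probe other than its brightest, whose changes were 0.93 and 0.99.

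Of 14 measured matrix substrates of these enzymes, 4 rose and 3 fell in WT and 6 rose and 3 fell in Mapk9 KO, with a median log2 change of 0.52 in WT and 0.25 in Mapk9 KO. At the brightest probes alone 4 rose and 1 fell in WT and 4 rose and 2 fell in Mapk9 KO. Col10a1, the collagen of hypertrophic cartilage, rose by 2.64 (SE 0.33, limma adjusted p = 0.000356) in WT and 3.49 in Mapk9 KO. Acan, the main cartilage proteoglycan, rose by 2.03 and 2.18, and Col9a1 by 1.25 and 1.93. Comp, a matrix glycoprotein, rose by 1.08 in WT, and in Mapk9 KO it was called at a probe other than its brightest, whose change was 1.0. Col1a2, of the fibrillar collagen of bone and tendon, fell by 1.46 in WT and fell by 2.44 in Mapk9 KO. Col11a1 and Dcn were called lower in WT at a probe other than their brightest, whose changes were 0.85 and 0.24. In Mapk9 KO Col11a1 was called higher at its brightest probe (1.23, adjusted p = 0.000412). Col2a1, the chief target of Mmp13, changed by 0.54 (SE 0.25) in WT and 0.03 (SE 0.21) in Mapk9 KO and did not pass. Its group means of 13.83 to 14.37 also lie near the top of the scale. Of the chondrocyte markers 7 rose and 1 fell in WT and 8 rose in Mapk9 KO, and of 6 hypertrophic markers 3 and 4 rose. At the brightest probes 7 chondrocyte markers rose and 0 fell, and 3 hypertrophic markers rose, in each genotype. Their part in the Timp3 and Mmp3 changes was not tested.

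The genes whose pattern over the 12 arrays was most like that of Timp3 (base 4268), by Pearson correlation of the log2 values, were Stc2, 5430426F23Rik, Phlda1, Matn1 and Enc1, with r from 0.993 to 0.995. For Mmp3 (base 1185) they were Actn4, Slc39a14, 9330107J05Rik, Ror2 and Anxa11, with r from 0.959 to 0.962. The 12 points share the injury contrast, so these values describe likeness over the 4 groups only.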

How the data were processed

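The authors deposited bead signal intensities of 45281 probes, neither background-corrected nor normalized, each with a deposited detection p-value. From these the authors made log2 values of 21004 probes by background correction with negative control probes and the vsn package, whose version is not given in the sources used here. The size of a change at a dim probe depends on that processing, the brightest probes lie near the top of the scale, and the number of arrays limits the precision. Columns of sample values left unused numbered 0.

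Groups and replicate numbers came from the labels. Each comparison was fitted on its own 6 arrays, and the interaction on all 12, with lmFit and eBayes of limma 3.58.1 in R 4.3.3, adjusted by Benjamini-Hochberg over all 21004 probes. Calls needed an adjusted p under 0.05 and, except for the interaction, a fold change above 2. A gene was called where any probe was. P-values measure the spread between pooled samples. An exact permutation test of 3 against 3 arrays cannot go below p = 0.1 and was not used. The script was tested on simulated data.

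Deviations from the group means correlated at 0.153 to 0.390 for the 18 pairs of arrays with the same replicate number and at -0.289 to 0.0825 for the other 36, so the numbers given in the labels were taken to pair the samples.

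Where a probe was detected on 0 arrays of a group, a bound is given as at least N-fold: the bright group's mean against the dim group's mean, after values of dim arrays under the lowest detected signal on that array were raised to it. Named genes were all members, up to 6 called genes of each list by size of the WT change, Mapk9, the 5 genes most like 1 protease and 1 inhibitor, and markers. Col2a1, Timp4, Reck and Dcn were named after their values were seen. Members and lists were chosen with earlier results of these data known. Alternatives were 2 other normalizations, centred arrays, a fit on all 12 arrays, a detection filter (at least 3 arrays), replicate or label code blocks, the methods' t-test, other thresholds (no fold limit, fold above 1.5), the highest-mean probe per gene, other probes in the balance, and each array left out in turn.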

Additional observations from a re-analysis of the deposited data

How the results depend on the processing

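Values were recomputed for all 28 injury changes of the probes and for the 11 genotype and interaction values with an unadjusted p under 0.05, and the other 31 of these were recomputed only as calls. Of 651 such values 625 kept their direction and side of the threshold, 18 passed only under the alternative, 1 no longer passed (Mmp14 in Mapk9 KO, above) and 7 changed sign, 0 of them among called values. Within this selection the 7 are all Mmp13 in Mapk9 KO. At base 2453 the change was 0.04 with neqc (offset 16), 0.04 with quantile normalization without background correction, 0.22 without Mapk9 KO control replicate 1 and 0.17 without Mapk9 KO injured replicate 3. At base 1261 it was 0.02 without Mapk9 KO injured replicate 2, and at base 2332 it was -0.01 and -0.03 without those control 1 and injured 3 arrays. Over the arrays left out in turn the Mapk9 KO change ran from -0.23 to 0.22 at base 2453, from -0.45 to 0.02 at base 1261 and from -0.03 to 0.24 at base 2332. The cause was not tested. With each array left out in turn, 2 to 3 members passed in WT (Mmp3 joined without WT control replicate 1, as it did with array medians subtracted, the detection filter and all 12 arrays in the fit; with the highest-mean probe per gene Mmp3 and Timp3 passed and Mmp13 did not), 3 to 5 in Mapk9 KO, and 0 to 0 in both genotype comparisons and the interaction, while the balance changed by -0.58 to -0.43 in WT and by -0.79 to -0.66 in Mapk9 KO. Quantile normalization without background correction called 1 member, Mmp3, higher in injured Mapk9 KO than in injured WT hips (1.17 at base 804, adjusted p = 0.0433). The balance in WT was -0.91 with the Mmp13 probe at base 1261, -0.75 with that at base 2332 and -0.72 with the Timp3 probe at base 1679. That Timp3 probe gave -1.41 in Mapk9 KO, and it was detected on 1 of 3 WT control and 0 of 3 Mapk9 KO control arrays. With the replicate block 2 members passed in WT and 4 in Mapk9 KO, and the block changed no call of a member gene. With no fold limit, and at a fold above 1.5, Timp1 also passed in WT and Mmp9 and Timp2 in Mapk9 KO. Over all genes 2560 were called in WT and 3233 in Mapk9 KO, against 967 and 1463 with quantile normalization without background correction, 1413 and 2773 with the methods' t-test, 4387 and 5925 at a fold above 1.5, and 4403 and 6492 with no fold limit. The genotype calls over all genes were 23 in control and 31 in injured hips, against 41 in control hips with all 12 arrays in the fit, 13 and 18 with quantile normalization, 0 and 0 with the t-test (1178 and 1959 probes at an unadjusted p under 0.05). The interaction called 0 genes (2088 probes at an unadjusted p under 0.05), and 105 with the replicate block, which gave 173 in injured hips. With each array left out in turn the genotype calls over all genes ran from 17 to 341 in control and from 18 to 145 in injured hips and those of the interaction from 0 to 209 (arrays named above). Dim probes limit the sizes given for Timp3 at base 1679 and Mmp13 at base 2332.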
